A study of Mus musculus with 14 samples.

Results

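Cells labelled AdipoqTraced were set against mature fat cells labelled Adipocyte over all genes measured by RNA sequencing. These were 4 of the 14 libraries of the series, 2 in each group, chosen by their sample labels and not by measured values. Both groups were isolated by fluorescence-activated cell sorting. The tissue was dermis, taken at the bed of the wound when 5 days had passed since injury, and the mice were males of strain C57/BL6 at 7 weeks of age. The labels describe the AdipoqTraced cells as GFP, a green fluorescent protein. Another 2 libraries, CD26, came from the same tissue, day, strain, sex and age, and served as a second stromal group and in the estimate of the spread. CD26 is the protein made from Dpp4. The labels name no Cre driver, reporter allele or gate, and no uninjured group was set beside these cells. They do not say whether the replicates were separate animals or pools, so a p-value reflects no more than the spread between these libraries, and that spread may be technical. In sorted bulk samples, fewer cells of a type and less RNA per cell cannot be told apart.

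A mature white fat cell makes fatty acids from glucose, joins them to glycerol as triglyceride, and stores them in a single droplet coated with perilipin and CIDE proteins. Hormones act on the coat and on 3 lipases in turn to release the fatty acids, and the nuclear receptor PPARγ keeps the genes for this machinery on. In skin, these cells form the layer under the dermis. A wound fibroblast instead secretes collagen and other matrix proteins, and as a myofibroblast it pulls on that matrix with actin stress fibres. In lineage tracing, a mark set while a cell expresses one gene stays in its descendants after that gene is off.

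The 2 groups differed in the share of counts from the mitochondrial genome. In AdipoqTraced this share was 18.45% and 26.74%, against 79.07% and 84.79% in Adipocyte. Those rows were set aside, so that 11518994 and 10081318 counts remained in AdipoqTraced and 2952186 and 3255546 in Adipocyte. Levels are CPM, the remaining counts scaled to a common total, with factors from the trimmed mean of M values, given as replicate 1 and replicate 2. At this depth, 3 counts came to 0.279 and 0.279 CPM in AdipoqTraced and to 1.02 and 0.85 CPM in Adipocyte, so a 0 in Adipocyte sets a weaker limit. The replicates were not close copies of one another. Across genes, log2 levels correlated at r = 0.795 between the AdipoqTraced libraries and at 0.809 between the Adipocyte libraries, against 0.63 to 0.685 between the groups, and genes are not independent replicates. The AdipoqTraced libraries correlated at 0.755 to 0.82 with those of CD26. Adipocyte 2 stood nearer to AdipoqTraced than Adipocyte 1 did: of the 71 genes of 8 fat cell lists that fell, 62 were lower in Adipocyte 2, and of the 89 genes of 7 matrix lists that rose, 68 were higher there. Its part in the results was not tested beyond leaving each library out.

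Both labels were set beside marker genes chosen with earlier results of these data known, so the counts are no independent check of the labels. All 12 markers of mature adipocytes passed the test as lower in AdipoqTraced and were above 0 in both Adipocyte libraries. Of these 12, 8 were still above 0 in both AdipoqTraced libraries and 2, Lep and Slc2a4, were at 0 in both. All 8 fibroblast markers (Pdgfra, Col1a1, Col1a2, Col3a1, Dcn, Lum, Thy1 and Pdgfrb) passed as higher in AdipoqTraced, and all 8 were above 0 in both Adipocyte libraries too. In the wider list of fibroblast and fat progenitor markers, 7 of 24 tested genes rose and none fell. Calls missed with a single library left out are given hereafter with the adjusted p in parentheses and then its range over 17 alternatives to the processing. They were here those of Slc2a4 without Adipocyte 1 (0.0587), range 1.79e-10 to 0.0587; Pdgfra without AdipoqTraced 1 (0.0697), without AdipoqTraced 2 (0.0672), range 0.000328 to 0.199; and Dcn without AdipoqTraced 1 (0.0697), range 0.000507 to 0.0697.

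Of 16010 genes tested with edgeR's quasi-likelihood test and Benjamini-Hochberg adjustment, 1304 (8.14%) were called at an adjusted p under 0.05. The table held 52636 genes, of which 30055 had no count in any of the 4 libraries, and 1018 of the 1096 genes in 52 lists passed the filter on low counts. In AdipoqTraced 636 (3.97%) rose and 668 (4.17%) fell, and 3577 genes had an unadjusted p under 0.05. The libraries of the groups did not overlap for 50.5% of the genes tested, so that lack of overlap is common here. All 1304 called genes were among them. In 77 of the called genes both AdipoqTraced libraries were at 0, and in 20 both Adipocyte libraries were. The count moved with the libraries used: 475 genes were called without Adipocyte 1, 692 without Adipocyte 2, 866 without AdipoqTraced 1 and 1005 without AdipoqTraced 2. The median log2 fold change over all genes tested was 0.23, against which the medians of the gene lists are set.

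**Figure D1:**
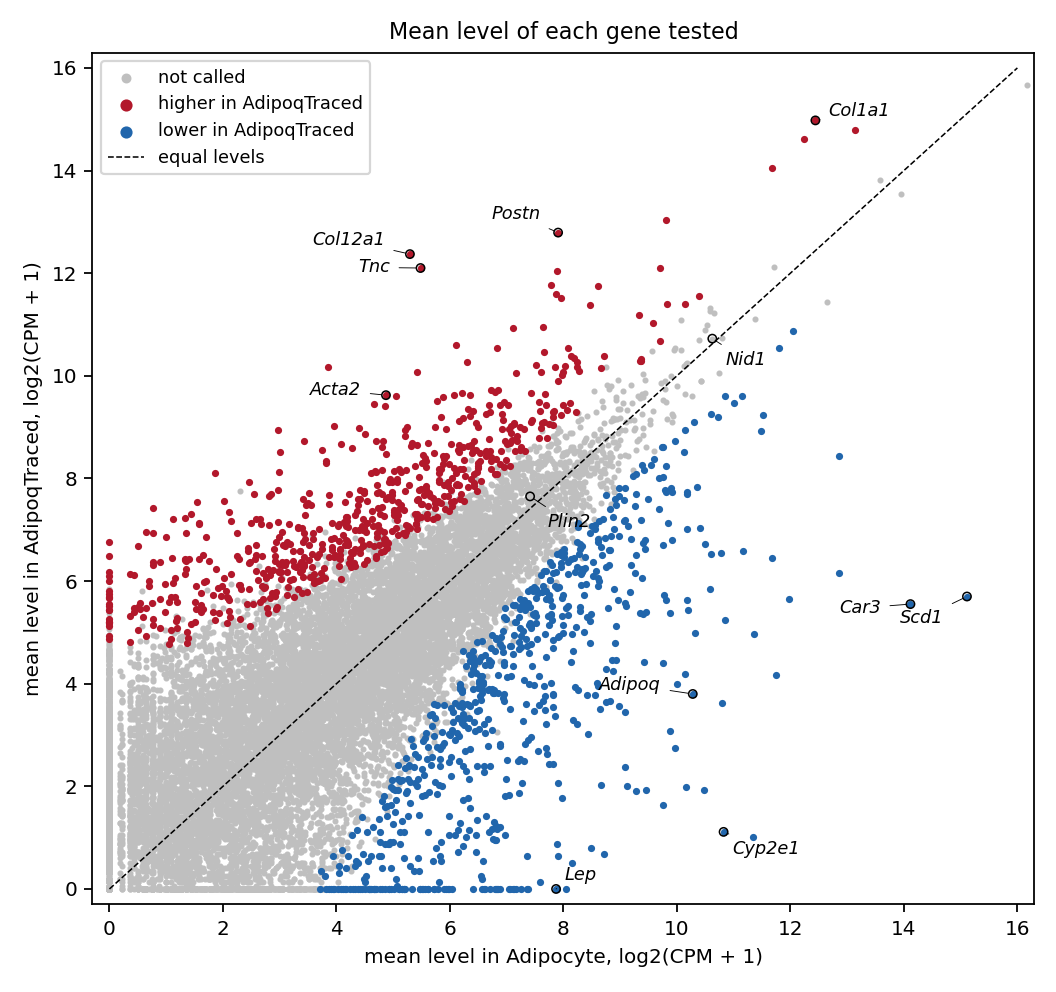
Mean level of each tested gene in AdipoqTraced (vertical axis) against Adipocyte (horizontal axis), both as log2(CPM + 1), with called genes in colour and a dashed line of equal levels. Fat cell genes such as Scd1, Car3 and Cyp2e1 lie at the lower right and matrix genes such as Col12a1 and Tnc at the upper left, while Plin2 and Nid1 lie near the line.

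Signals that fat cells send out had lower transcripts in AdipoqTraced. Of 12 tested genes of secreted factors, 10 fell and none rose, with a median log2 fold change of -4.38. Cfd, which encodes the complement factor adipsin, stood at 16.6 and 17.4 CPM in AdipoqTraced, against 4125 and 2766 CPM in Adipocyte (log2 fold change -7.66, SE 0.34, adjusted p = 1.33e-07). Rbp4, the plasma carrier of retinol, stood at 8.84 and 14.6 CPM in AdipoqTraced, against 251 and 145 CPM in Adipocyte (log2 fold change -4.07, SE 0.51, adjusted p = 0.000437). Both AdipoqTraced libraries lay far below both Adipocyte libraries for these genes. The hormone gene Retn, for resistin, had 1.12 and 0 CPM in AdipoqTraced and 217 and 257 CPM in Adipocyte. Angptl4, an inhibitor of lipoprotein lipase, fell less and stayed abundant, at 242 and 179.5 CPM in AdipoqTraced, against 837 and 963 CPM in Adipocyte (log2 fold change -2.09, SE 0.31, adjusted p = 0.00138). The genes not called were Nampt, at 34.6 and 71.1 CPM in AdipoqTraced, against 102 and 103 CPM in Adipocyte (adjusted p = 0.223), and Apln, at 32.5 and 11.99 CPM in AdipoqTraced, against 20.8 and 0 CPM in Adipocyte (adjusted p = 0.576).

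The start sites of the adiponectin gene Adipoq and the droplet protein gene Cidec are shown because both genes were low in AdipoqTraced and high in Adipocyte. Adipoq stood at 22.1 and 3.72 CPM in AdipoqTraced, against 1476 and 1008 CPM in Adipocyte, and Cidec at 3.81 and 1.77 CPM in AdipoqTraced, against 1570 and 1263 CPM in Adipocyte. Both are 250 bases upstream of the start site, 5′ to 3′, from RefSeq on GRCm38.p6 (mm10). The Adipoq window is chr16:23146286-23146535 on the plus strand and that of Cidec chr6:113434765-113435014 on the minus strand, and neither holds bases of an annotated exon.
Adipoq: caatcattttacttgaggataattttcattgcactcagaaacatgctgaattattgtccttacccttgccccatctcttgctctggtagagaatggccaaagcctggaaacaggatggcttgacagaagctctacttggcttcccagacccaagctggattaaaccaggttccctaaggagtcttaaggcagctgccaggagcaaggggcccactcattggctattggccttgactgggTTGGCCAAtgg
Cidec: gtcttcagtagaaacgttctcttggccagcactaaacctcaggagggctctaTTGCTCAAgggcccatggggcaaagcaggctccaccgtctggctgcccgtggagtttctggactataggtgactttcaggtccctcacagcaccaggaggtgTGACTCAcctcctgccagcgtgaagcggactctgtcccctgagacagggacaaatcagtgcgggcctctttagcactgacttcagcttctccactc
Capitals mark TTGNNCAA, the palindromic core bound by C/EBP proteins, and in Cidec also TGANTCA, the AP-1 site. Searched on both strands, the first base of TTGNNCAA lay at -11 in Adipoq and at -198 in Cidec, and TGANTCA lay at -96 in Cidec, counted from the start site. A second Cidec window, chr6:113435761-113436010, held neither motif. Windows of Pck1, Pnpla2 and Lipe, which also fell, held neither, while those of Lep and Plin1 held TTGNNCAA. TTGNNCAA occurred in 5.65% of 32851 windows of this length. Counted by gene, with a match in any window of the gene, it occurred in 5.74% of 10915 genes tested. It occurred likewise in 5.75% of 487 genes that fell and in 5.93% of 455 that rose. The shares by gene are close to one another, and a match describes letters, not binding.

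Transcription factors of the fat cell state split. Of 22 tested, 7 fell and 1 rose (4 fell without AdipoqTraced 2, without Adipocyte 1 or without Adipocyte 2), with a median of -1.62. Pparg, the receptor that drives fat cell formation, stood at 3.35 and 6.97 CPM in AdipoqTraced, against 217 and 199 CPM in Adipocyte (log2 fold change -5.33, SE 0.54, adjusted p = 9.88e-05). The glucose-sensing factor gene Mlxipl, for ChREBP, had 0 and 6.41 CPM in AdipoqTraced and 332 and 148 CPM in Adipocyte, and Thrsp, a lipogenic cofactor, 0 and 11.3 CPM in AdipoqTraced and 1410 and 593 CPM in Adipocyte. Both calls ended with edgeR's older dispersion fit (legacy = TRUE; adjusted p of 0.15 and 0.0639) and that of Mlxipl also with DESeq2 (adjusted p = 0.201; 6.63e-05 to 0.201 over 17 alternatives for Mlxipl and 4.88e-07 to 0.0639 for Thrsp). The clock repressor and haem receptor gene Nr1d1 fell to 16.1 and 24.1 CPM in AdipoqTraced, against 1027 and 694 CPM in Adipocyte (log2 fold change -5.42, SE 0.40, adjusted p = 1.17e-05). Each of these had both AdipoqTraced libraries below both Adipocyte libraries. Several factors of early fat cell commitment were not called. Cebpb, induced first in differentiation, stood at 36.6 and 50.6 CPM in AdipoqTraced, against 62.2 and 29.7 CPM in Adipocyte (adjusted p = 0.973), and the groups overlapped. Cebpa, partner of PPARγ in the mature cell, stood at 64.1 and 23.2 CPM in AdipoqTraced, against 69.3 and 216 CPM in Adipocyte (adjusted p = 0.114). The progenitor factors Ebf1, Ebf2 and Zfp423 were not called, with adjusted p of 0.226, 0.927 and 0.22. Klf4, which acts early in adipogenesis, was the member that rose, at 546 and 444 CPM in AdipoqTraced, against 114 and 125 CPM in Adipocyte (log2 fold change 2.05, SE 0.30, adjusted p = 0.00121).

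Uptake of lipid from blood also had lower transcripts in its main steps. Of 13 tested genes, 6 fell and 1 rose, with a median of -0.44. Lpl, the lipase that frees fatty acids from lipoproteins, stood at 381 and 312 CPM in AdipoqTraced, against 9882 and 4871 CPM in Adipocyte (log2 fold change -4.41, SE 0.34, adjusted p = 1.72e-05). The fatty acid carrier gene Fabp4 stood at 44.0 and 55.0 CPM in AdipoqTraced, against 4907 and 3112 CPM in Adipocyte (log2 fold change -6.34, SE 0.39, adjusted p = 3.54e-06), and the transporter gene Cd36 at 42.7 and 70.8 CPM in AdipoqTraced, against 1958 and 1123 CPM in Adipocyte (log2 fold change -4.76, SE 0.39, adjusted p = 2.26e-05). In all 3 the lowest Adipocyte value was several times the highest AdipoqTraced value, and Lpl still stood above the others in AdipoqTraced. Aqp7, a channel for glycerol, was at 0 in both AdipoqTraced libraries and at 68.3 and 61.2 CPM in Adipocyte. The acyl-CoA synthetase gene Acsl1 and the transporter gene Slc27a1 fell too, where Acsl1 fell by 4.57 and Slc27a1 fell by 4.10 on the log2 scale. Lrp1, a receptor for lipoproteins and protease complexes, rose to 2496 and 1660 CPM in AdipoqTraced, against 632 and 892 CPM in Adipocyte (log2 fold change 1.45, SE 0.27, adjusted p = 0.00587). Fabp5, the carrier common in other cell types, had 73.2 and 61.6 CPM in AdipoqTraced and 27.0 and 28.9 CPM in Adipocyte and was not called (adjusted p = 0.167). The call missed with a single library left out was Lrp1 without AdipoqTraced 1 (0.0577), range 0.000303 to 0.0577.

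Fatty acid synthesis fell in most of its genes. Of 16 tested genes, 11 fell and none rose, with a median of -4.52. Citrate export and cleavage fell together: the citrate carrier gene Slc25a1 stood at 2.33 and 11.8 CPM in AdipoqTraced, against 475 and 213 CPM in Adipocyte (log2 fold change -5.60, SE 0.64, adjusted p = 0.000236) and the citrate lyase gene Acly at 59.3 and 126 CPM in AdipoqTraced, against 2492 and 1010 CPM in Adipocyte (log2 fold change -4.24, SE 0.50, adjusted p = 0.000274). Me1, which makes NADPH for the pathway, stood at 64.8 and 32.0 CPM in AdipoqTraced, against 1236 and 547 CPM in Adipocyte, and Acaca, the carboxylase that makes malonyl-CoA, at 38.4 and 46.8 CPM in AdipoqTraced, against 1396 and 955 CPM in Adipocyte. Pyruvate carboxylase, from Pcx, fell to 2.88 and 1.95 CPM in AdipoqTraced, against 276 and 226 CPM in Adipocyte (log2 fold change -6.69, SE 0.55, adjusted p = 1.19e-05). No value of one group reached into the other for these 5 genes. Among the desaturases the isoforms differed. Scd1 fell by 9.44 on the log2 scale and Scd3 was at 0 in both AdipoqTraced libraries, against 88.5 and 196 CPM in Adipocyte, at least 1021-fold lower. Scd2, the isoform common outside fat and liver, stood at 362 and 213 CPM in AdipoqTraced, against 674 and 321 CPM in Adipocyte (adjusted p = 0.277) and was not called. The elongase gene Elovl5 and the desaturase gene Fads1, which act on long polyunsaturated fatty acids, were not called either, with adjusted p of 0.255 and 0.926.

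Triglyceride assembly genes fell in part. Of 14 tested genes, 6 fell and none rose (4 fell without Adipocyte 1), with a median of -2.69. Pck1, which makes glycerol phosphate from pyruvate in fat, stood at 0 and 2.04 CPM in AdipoqTraced, against 3670 and 1509 CPM in Adipocyte (log2 fold change -11.28, SE 0.84, adjusted p = 4.19e-06). Gpd1, the other source of glycerol phosphate, stood at 0 and 4.18 CPM in AdipoqTraced, against 1157 and 558 CPM in Adipocyte (log2 fold change -8.67, SE 0.76, adjusted p = 2.97e-05). Dgat2, which adds the last fatty acid, stood at 9.95 and 4.83 CPM in AdipoqTraced, against 1267 and 619 CPM in Adipocyte (log2 fold change -6.99, SE 0.51, adjusted p = 1.2e-05), and the phosphatase gene Lpin1 at 16.1 and 11.2 CPM in AdipoqTraced, against 373 and 239 CPM in Adipocyte. The gap between the groups was wide in all 4. Dgat1, the second enzyme of that last step, stood at 96.3 and 65.2 CPM in AdipoqTraced, against 101.1 and 115 CPM in Adipocyte and was not called (adjusted p = 0.594).

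Release of stored lipid had lower transcripts from receptor to lipase. Of 18 tested genes, 12 fell and none rose, with a median of -3.74. The β3-adrenergic receptor gene Adrb3, through which noradrenaline starts lipolysis, was at 0 in both AdipoqTraced libraries and at 179.7 and 84.1 CPM in Adipocyte, at least 946-fold lower. The lactate receptor gene Hcar1, which restrains lipolysis, had 0 and 1.301 CPM in AdipoqTraced and 64.2 and 109 CPM in Adipocyte, and was not called by DESeq2 (adjusted p = 0.0977; 0.000308 to 0.0977 over 17 alternatives). Downstream, the phosphodiesterase gene Pde3b fell by 3.71 and the kinase subunit gene Prkar2b fell by 3.76 on the log2 scale. Genes of receptors and of their signal thus had lower transcripts alongside the lipases, and Hcar1, which restrains lipolysis, was among them. Lipe, hormone-sensitive lipase, stood at 5.58 and 0 CPM in AdipoqTraced, against 732 and 665 CPM in Adipocyte (log2 fold change -7.96, SE 0.69, adjusted p = 3.03e-05), and Mgll, the last lipase of the chain, at 10.4 and 0.929 CPM in AdipoqTraced, against 113 and 296 CPM in Adipocyte (log2 fold change -5.18, SE 0.73, adjusted p = 0.000691). Abhd5, the coactivator of the first lipase, fell less, at 64.4 and 74.2 CPM in AdipoqTraced, against 321 and 315 CPM in Adipocyte (log2 fold change -2.20, SE 0.33, adjusted p = 0.00154). Hilpda, an inhibitor of that lipase found in many cell types, was not called, at 199 and 150.3 CPM in AdipoqTraced, against 113 and 144 CPM in Adipocyte (adjusted p = 0.527).

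Genes of the droplet coat fell as well. Of 13 tested genes, 9 fell and none rose (6 fell without Adipocyte 1 or without AdipoqTraced 2), with a median of -2.69. Plin1, the perilipin of white fat cells, stood at 15.8 and 6.97 CPM in AdipoqTraced, against 2337 and 1208 CPM in Adipocyte (log2 fold change -7.28, SE 0.45, adjusted p = 8.82e-07), and Plin4 at 0 and 5.95 CPM in AdipoqTraced, against 1364 and 915 CPM in Adipocyte (log2 fold change -8.57, SE 0.71, adjusted p = 2.14e-05). Plin2, the perilipin of small droplets in most cells, stood at 212 and 188 CPM in AdipoqTraced, against 158 and 181 CPM in Adipocyte (log2 fold change 0.24, SE 0.32, adjusted p = 0.697), close in both groups though without overlap. Plin3 was not called either (adjusted p = 0.753). Caveolae, the membrane pits dense on fat cells, went the way of Plin1: Cav1 stood at 59.3 and 67.2 CPM in AdipoqTraced, against 434 and 350.0 CPM in Adipocyte (log2 fold change -2.63, SE 0.34, adjusted p = 0.000524), and Cavin2 fell by 4.62 on the log2 scale.

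Transporters and enzymes that mark the mature fat cell membrane and cytosol fell in most cases. Of 23 tested, 16 fell and 1 rose, with a median of -5.6. Car3, a carbonic anhydrase, stood at 55.3 and 36.5 CPM in AdipoqTraced, against 22720 and 12780 CPM in Adipocyte, a 387-fold lower mean (log2 fold change -8.59, SE 0.39, adjusted p = 2.29e-07). Cyp2e1, a cytochrome P450, had 0 and 2.32 CPM in AdipoqTraced and 1967 and 1652 CPM in Adipocyte (log2 fold change -10.59, SE 0.64, adjusted p = 2.29e-07). Tshr, the thyrotropin receptor, stood at 0 and 6.13 CPM in AdipoqTraced, against 457 and 349.8 CPM in Adipocyte. Receptor gene Acvr1c, for the activin receptor ALK7, had 0 and 1.21 CPM in AdipoqTraced and 487 and 349 CPM in Adipocyte. Apart from Car3, each of these was under 2 CPM in at least 1 AdipoqTraced library. The water channel gene Aqp1 was the member that rose, at 25.2 and 40.5 CPM in AdipoqTraced, against 1.71 and 0 CPM in Adipocyte (log2 fold change 5.38, SE 1.32, adjusted p = 0.0264). Its call was missed in Aqp1 without AdipoqTraced 2 (0.06), without Adipocyte 1 (0.252), without Adipocyte 2 (0.347), range 7.22e-06 to 0.347.

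**Figure D2:**
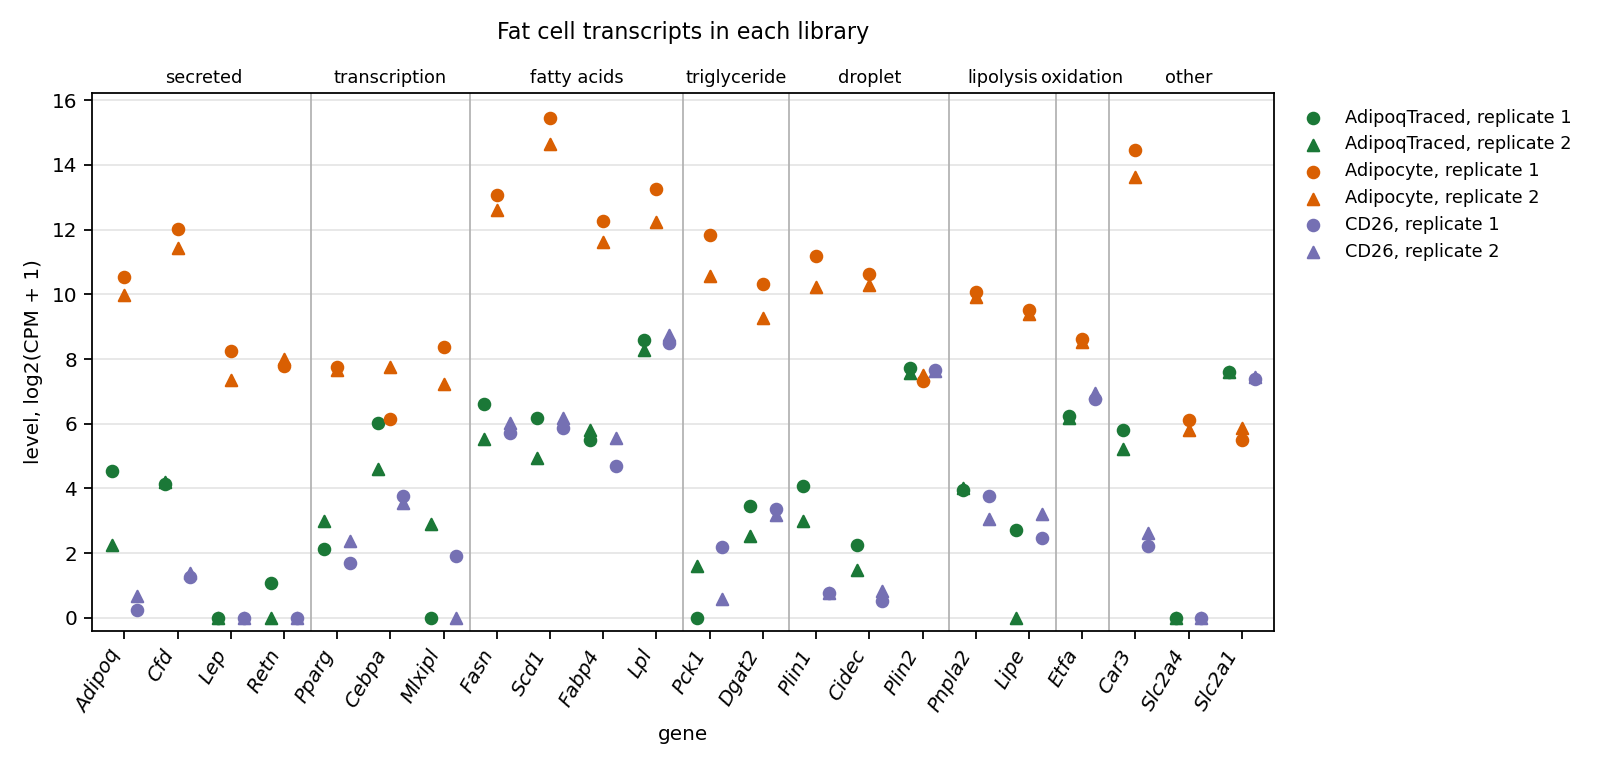
Level of fat cell genes in each library as log2(CPM + 1), grouped by role, with AdipoqTraced in green, Adipocyte in orange and CD26 in purple, and replicates as circles and triangles. Most genes are several units lower in both AdipoqTraced libraries than in Adipocyte, while Plin2 lies at about the same height in all 6.

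Fat cell transcripts that remained in AdipoqTraced were set against CD26, the other stromal group. In that contrast, 64 genes (0.4%) were called, 37 higher (0.231%) and 27 lower (0.169%), and no gene was called without CD26 1 or without CD26 2, which holds for every call against CD26 given here. Of the 125 tested genes of the 8 fat cell lists, 3 were higher in AdipoqTraced than in CD26 and none was lower. Car3 had 55.3 and 36.5 CPM in AdipoqTraced and 3.62 and 5.19 CPM in CD26 (log2 fold change 3.39, SE 0.40, adjusted p = 0.0096). Cfd had 16.6 and 17.4 CPM in AdipoqTraced and 1.38 and 1.60 CPM in CD26 (log2 fold change 3.51, SE 0.47, adjusted p = 0.0132). Plin1 had 15.8 and 6.97 CPM in AdipoqTraced and 0.689 and 0.698 CPM in CD26 (log2 fold change 4.01, SE 0.77, adjusted p = 0.0445). For these genes both AdipoqTraced libraries lay between CD26 and Adipocyte. The trafficking protein of the glucose transporter, from Trarg1, had the same order, at 90.0 and 18.4 CPM in AdipoqTraced and 1.81 and 0.299 CPM in CD26 (log2 fold change 5.60, SE 0.93, adjusted p = 0.0314), against 692 and 457 CPM in Adipocyte. Adipoq itself had 22.1 and 3.72 CPM in AdipoqTraced and 0.172 and 0.599 CPM in CD26 and was not called (adjusted p = 0.0775). Of the 71 fat cell genes that fell against Adipocyte, 19 had both AdipoqTraced libraries above both CD26 libraries and 10 had both below, against 21.2% above and 23.7% below among all genes tested.

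Mitochondrial metabolism genes fell in part. Over the genes of fatty acid oxidation, the citrate cycle and the respiratory chain, 20 of 75 tested fell and none rose, with a median of -1.15. Fatty acid oxidation had 10 of 22 lower, the citrate cycle 8 of 24 and the nuclear genes of the respiratory chain 2 of 29. In the same order these counts were 2, 2 and 1 without Adipocyte 1, 6, 8 and 3 without Adipocyte 2, 6, 7 and 1 without AdipoqTraced 1, and 8, 4 and 1 without AdipoqTraced 2. Etfa, which passes electrons from oxidation to the chain, stood at 74.8 and 70.7 CPM in AdipoqTraced, against 389 and 368 CPM in Adipocyte (log2 fold change -2.38, SE 0.32, adjusted p = 0.000747). In the citrate cycle, Sdha, of succinate dehydrogenase, stood at 113 and 107 CPM in AdipoqTraced, against 793 and 595 CPM in Adipocyte (log2 fold change -2.66, SE 0.31, adjusted p = 0.00028), and Dld, a subunit shared by the keto acid dehydrogenases, at 77.5 and 57.9 CPM in AdipoqTraced, against 438 and 296 CPM in Adipocyte (log2 fold change -2.44, SE 0.37, adjusted p = 0.00162). Both AdipoqTraced libraries were below both Adipocyte libraries in all 3. In the chain, the ATP synthase subunit gene Atp5b fell to 604 and 612 CPM in AdipoqTraced, against 1703 and 1406 CPM in Adipocyte (log2 fold change -1.35, SE 0.24, adjusted p = 0.00427). Complex IV subunit gene Cox4i1 was not called, at 108 and 107 CPM in AdipoqTraced, against 170.5 and 122 CPM in Adipocyte (adjusted p = 0.541). Cpt1a, which admits fatty acids to mitochondria, was not called and stood at 119.8 and 83.6 CPM in AdipoqTraced, against 27.7 and 74.5 CPM in Adipocyte (adjusted p = 0.287). The share of counts from the mitochondrial genome was lower in AdipoqTraced as well, and its part in these results was not tested. Markers of skeletal muscle, a tissue rich in mitochondria, summed to 33.2 and 43.4 CPM in AdipoqTraced and 834 and 1664 CPM in Adipocyte, and their part was not tested.

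Transporters of glucose moved in both directions. Of 20 tested genes of glucose uptake and insulin signalling, 2 rose and 7 fell, with a median of -1.52. Slc2a4, which encodes the insulin-regulated transporter GLUT4, was at 0 in both AdipoqTraced libraries and at 69.0 and 54.9 CPM in Adipocyte. Slc2a1, the widespread transporter GLUT1, stood at 194 and 195 CPM in AdipoqTraced, against 43.7 and 58.1 CPM in Adipocyte (log2 fold change 1.93, SE 0.37, adjusted p = 0.00709). The pair thus moved in opposite directions with no overlap. Among insulin relay genes, Pik3r1, a regulatory subunit of PI3 kinase, stood at 92.4 and 120.3 CPM in AdipoqTraced, against 686 and 665 CPM in Adipocyte (log2 fold change -2.67, SE 0.30, adjusted p = 0.00022), the kinase gene Sik2 at 126 and 80.4 CPM in AdipoqTraced, against 899.5 and 822 CPM in Adipocyte (log2 fold change -3.06, SE 0.33, adjusted p = 0.000144) and the transcription factor gene Foxo1 at 57.2 and 29.9 CPM in AdipoqTraced, against 290.0 and 236 CPM in Adipocyte (log2 fold change -2.59, SE 0.41, adjusted p = 0.00222). Of 19 tested glycolysis genes, none rose and 2 fell, Pfkfb3 and Aldoa, and the median was 0.04. Pfkfb3, which makes the activator of phosphofructokinase, stood at 62.5 and 51.2 CPM in AdipoqTraced, against 509.7 and 438 CPM in Adipocyte (log2 fold change -3.06, SE 0.41, adjusted p = 0.000647), while Pkm, pyruvate kinase, was not called at 386 and 216 CPM in AdipoqTraced, against 214 and 125 CPM in Adipocyte (adjusted p = 0.323). Calls missed with a single library left out were Slc2a4 without Adipocyte 1 (0.0587), range 1.79e-10 to 0.0587; Slc2a1 without Adipocyte 1 (0.0864), range 2.97e-06 to 0.0864; and Aldoa without AdipoqTraced 1 (0.0937), without AdipoqTraced 2 (0.202), without Adipocyte 1 (0.276), without Adipocyte 2 (0.101), range 0.00364 to 0.276, so 1 glycolysis gene fell in each such fit.

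Side branches of carbon metabolism and antioxidant genes fell in part. Of 16 tested genes of the pentose phosphate pathway and one-carbon metabolism, 2 rose and 5 fell (0 and 1 without Adipocyte 1, 1 and 4 without Adipocyte 2, 0 and 3 without AdipoqTraced 1, and 1 and 1 without AdipoqTraced 2). Transketolase, from Tkt, stood at 66.0 and 51.3 CPM in AdipoqTraced, against 541 and 240.2 CPM in Adipocyte (log2 fold change -2.73, SE 0.44, adjusted p = 0.00223). In sterol synthesis 2 of 19 fell (3 without AdipoqTraced 2 and 1 without each of the others), and the synthase and reductase genes of the early pathway were not called. Insig1, the brake on the sterol-regulated transcription factor SREBP, stood at 70.7 and 61.3 CPM in AdipoqTraced, against 836 and 493 CPM in Adipocyte (log2 fold change -3.33, SE 0.39, adjusted p = 0.000256). Of 29 genes of glutathione, iron and antioxidant defence, none rose and 9 fell. Cat, catalase of peroxisomes, stood at 106 and 66.5 CPM in AdipoqTraced, against 4201 and 2364 CPM in Adipocyte (log2 fold change -5.25, SE 0.37, adjusted p = 8.99e-06) and was also lower in AdipoqTraced than in CD26, which had 303 and 307 CPM (log2 fold change -1.82, SE 0.33, adjusted p = 0.0437). Superoxide dismutase gene Sod1 stood at 289 and 312 CPM in AdipoqTraced, against 803 and 993 CPM in Adipocyte (log2 fold change -1.58, SE 0.28, adjusted p = 0.00428) and the retinal dehydrogenase gene Aldh1a1 at 8.46 and 16.7 CPM in AdipoqTraced, against 221 and 187 CPM in Adipocyte (log2 fold change -4.01, SE 0.53, adjusted p = 0.000606). Ferritin, glutathione peroxidase and haem oxygenase genes (Fth1, Gpx1 and Hmox1) were not called, with adjusted p of 0.569, 0.342 and 0.762.

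Many matrix genes rose. Over 7 matrix lists, 89 of 151 tested genes rose in AdipoqTraced and 5 fell, with a median of 2.62. Against CD26, 2 of the same genes were higher in AdipoqTraced, Col6a3 and Col4a1, and 1 was lower, a hyaluronan partner, with a median of 0.14. Among fibrillar collagens, 9 of 11 rose (8 without any of AdipoqTraced 1, Adipocyte 1 or Adipocyte 2), with a median of 2.54. Col3a1, the early collagen of wounds, stood at 18640 and 15510 CPM in AdipoqTraced, against 2318 and 4253 CPM in Adipocyte (log2 fold change 2.38, SE 0.26, adjusted p = 0.000167). Col5a1, which starts collagen fibrils, stood at 3997 and 2970 CPM in AdipoqTraced, against 205 and 232 CPM in Adipocyte (log2 fold change 3.99, SE 0.26, adjusted p = 5.72e-06), and Col11a1, of the same subfamily, at 147 and 149 CPM in AdipoqTraced, against 0.342 and 1.98 CPM in Adipocyte (log2 fold change 6.88, SE 0.79, adjusted p = 0.000161). Adipocyte thus held much Col3a1, less Col5a1 and next to no Col11a1, and the groups did not overlap. Of the fibril-associated, beaded and transmembrane collagens, 8 of 13 rose (6 without either Adipocyte library). The beaded filament gene Col6a1 stood at 1663 and 1304 CPM in AdipoqTraced, against 104 and 122 CPM in Adipocyte (log2 fold change 3.71, SE 0.29, adjusted p = 1.79e-05), and Col8a1, of vessel and wound matrix, at 620.2 and 735 CPM in AdipoqTraced, against 33.1 and 22.9 CPM in Adipocyte (log2 fold change 4.61, SE 0.35, adjusted p = 1.51e-05).

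Basement membrane genes were for the most part not called. Of 22 tested, 4 rose and 1 fell, with a median of 0.57 (2 rose without AdipoqTraced 1 or without Adipocyte 1, and none fell with any library left out). Every fat cell is wrapped in a basement membrane, of which collagen IV, laminin and nidogen are the main parts. Col4a1 stood at 847 and 437 CPM in AdipoqTraced, against 772 and 339 CPM in Adipocyte (adjusted p = 0.796), and the groups overlapped. It was higher in AdipoqTraced than in CD26, which had 105 and 131 CPM (log2 fold change 2.44, SE 0.43, adjusted p = 0.0422). Nid1 stood at 1852 and 1529 CPM in AdipoqTraced, against 1557 and 1598 CPM in Adipocyte (log2 fold change 0.10, SE 0.21, adjusted p = 0.819), and the laminin gene Lama4 at 449 and 421 CPM in AdipoqTraced, against 491 and 285 CPM in Adipocyte (adjusted p = 0.786). The proteoglycan perlecan, from Hspg2, rose to 1323 and 1016 CPM in AdipoqTraced, against 283 and 236 CPM in Adipocyte (log2 fold change 2.17, SE 0.27, adjusted p = 0.000451). Sparc, for a collagen-binding protein, had abundant transcripts in both groups, at 30690 and 25640 CPM in AdipoqTraced, against 8054 and 9930 CPM in Adipocyte (log2 fold change 1.65, SE 0.18, adjusted p = 0.000209).

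Enzymes that modify and cross-link collagen rose in most steps. Of 28 tested, 22 rose and none fell (15 rose without either Adipocyte library), with a median of 2.82. For prolyl hydroxylation, which makes the triple helix stable, P4ha2 stood at 204 and 204 CPM in AdipoqTraced, against 4.10 and 23.2 CPM in Adipocyte (log2 fold change 3.83, SE 0.55, adjusted p = 0.00104). For chaperoning of procollagen, Serpinh1, which encodes HSP47, stood at 1361 and 1318 CPM in AdipoqTraced, against 263 and 296 CPM in Adipocyte (log2 fold change 2.26, SE 0.25, adjusted p = 0.000187). Bmp1, which trims the ends of procollagen, stood at 526 and 242 CPM in AdipoqTraced, against 6.83 and 30.0 CPM in Adipocyte (log2 fold change 4.32, SE 0.58, adjusted p = 0.000696). For cross-linking, Lox stood at 1442 and 1399 CPM in AdipoqTraced, against 121 and 283 CPM in Adipocyte (log2 fold change 2.81, SE 0.35, adjusted p = 0.000452) and Loxl2 at 835 and 747 CPM in AdipoqTraced, against 24.2 and 108 CPM in Adipocyte (log2 fold change 3.55, SE 0.47, adjusted p = 0.000642). Adipocyte 2 was above Adipocyte 1 for each of these genes, and both stayed below both AdipoqTraced libraries. P3h2 and Pcolce2 were among the members not called, with adjusted p of 0.536 and 0.297.

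Glycoproteins and proteoglycans of the matrix rose in 26 of 39 cases and fell in 1, with a median of 2.39 (17 rose without Adipocyte 1). Postn, periostin, which binds integrins and collagen in healing tissue, stood at 7040 and 7133 CPM in AdipoqTraced, against 131 and 347 CPM in Adipocyte (log2 fold change 4.88, SE 0.39, adjusted p = 1.98e-05). Vcan, the hyaluronan-binding proteoglycan versican, stood at 1643 and 1477 CPM in AdipoqTraced, against 44.1 and 92.0 CPM in Adipocyte (log2 fold change 4.50, SE 0.34, adjusted p = 1.51e-05). Of the microfibril genes, Fbn2, a fibrillin of growing tissue, stood at 218 and 156 CPM in AdipoqTraced, against 2.39 and 3.68 CPM in Adipocyte (log2 fold change 5.91, SE 0.59, adjusted p = 4.39e-05). Each lay higher in both AdipoqTraced libraries. Eln, the elastin that microfibrils carry, was not called, at 71.3 and 55.2 CPM in AdipoqTraced, against 29.7 and 44.5 CPM in Adipocyte (adjusted p = 0.425), nor were the small proteoglycan genes Ogn, at 137 and 111 CPM in AdipoqTraced, against 182 and 206 CPM in Adipocyte (adjusted p = 0.27), and Prelp, at 662 and 457 CPM in AdipoqTraced, against 374 and 562 CPM in Adipocyte (adjusted p = 0.661). The groups overlapped for Prelp and not for Eln or Ogn.

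Hyaluronan, the large sugar polymer of loose wound matrix, had 5 of 11 genes higher and 2 lower (3 higher without Adipocyte 1, 1 lower without either AdipoqTraced library). The synthase gene Has1 stood at 364 and 184 CPM in AdipoqTraced, against 4.10 and 1.13 CPM in Adipocyte (log2 fold change 6.77, SE 0.67, adjusted p = 3.92e-05). Tnfaip6, which links hyaluronan to its carrier proteins, stood at 952 and 697 CPM in AdipoqTraced, against 98.0 and 123 CPM in Adipocyte (log2 fold change 2.90, SE 0.29, adjusted p = 9.97e-05), and the receptor gene Cd44 at 533 and 692 CPM in AdipoqTraced, against 47.8 and 149.5 CPM in Adipocyte (log2 fold change 2.61, SE 0.42, adjusted p = 0.00241). Synthesis, linking and binding were thus each represented among the rises, with no overlap of the groups. Itih5, a carrier protein made by fat cells, fell to 99.3 and 57.1 CPM in AdipoqTraced, against 436 and 458 CPM in Adipocyte (log2 fold change -2.51, SE 0.36, adjusted p = 0.00108). Ptx3, a pentraxin that joins the same complexes, stood at 410.5 and 431 CPM in AdipoqTraced, against 1148 and 851 CPM in Adipocyte (log2 fold change -1.25, SE 0.25, adjusted p = 0.00931), and at 1207 and 1143 CPM in CD26. Its call was missed in Ptx3 without AdipoqTraced 1 (0.0757), without AdipoqTraced 2 (0.055), range 0.000222 to 0.0757.

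Proteases of the matrix rose in part. Of 28 tested proteases and inhibitors, 16 rose and 1 fell, with a median of 2.84. Mmp14, the membrane protease that activates others, stood at 916 and 713 CPM in AdipoqTraced, against 21.9 and 125 CPM in Adipocyte (log2 fold change 3.44, SE 0.53, adjusted p = 0.00171). The stromelysin gene Mmp3 stood at 208 and 219 CPM in AdipoqTraced, against 17.4 and 34.3 CPM in Adipocyte (log2 fold change 3.02, SE 0.45, adjusted p = 0.0014), and the collagenase gene Mmp13 at 134 and 146 CPM in AdipoqTraced, against 0 and 13.6 CPM in Adipocyte (log2 fold change 4.26, SE 0.76, adjusted p = 0.00394). Both AdipoqTraced libraries were above both Adipocyte libraries for all 3. Start sites of Mmp3 and Mmp13, both on chromosome 9 and both higher, are shown for the motifs they share. Both windows are 250 bases upstream, 5′ to 3′, on the plus strand of GRCm38.p6 from RefSeq, at chr9:7445572-7445821 for Mmp3 and chr9:7272264-7272513 for Mmp13.
Mmp3: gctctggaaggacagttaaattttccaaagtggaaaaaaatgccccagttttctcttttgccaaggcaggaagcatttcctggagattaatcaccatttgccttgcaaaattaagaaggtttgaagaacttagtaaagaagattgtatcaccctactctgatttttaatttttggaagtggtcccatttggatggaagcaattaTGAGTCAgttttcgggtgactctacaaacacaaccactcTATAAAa
Mmp13: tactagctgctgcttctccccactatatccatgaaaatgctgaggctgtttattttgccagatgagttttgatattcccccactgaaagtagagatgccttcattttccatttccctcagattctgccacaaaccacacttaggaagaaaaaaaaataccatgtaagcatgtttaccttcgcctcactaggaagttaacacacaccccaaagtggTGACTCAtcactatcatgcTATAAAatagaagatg
Capitals mark TGANTCA, the letters of the AP-1 site, and TATAAA, those of the TATA box, both searched on both strands. A match describes letters, and its use at these RefSeq start sites was not tested. TGANTCA lay at -46 in Mmp3 and -35 in Mmp13, and TATAAA at -7 in Mmp3 and -16 in Mmp13, as first bases from the start site. TGANTCA occurred in 6.75% of all windows. Counted by gene, with a match in any window of the gene, it occurred in 6.29% of genes tested, 8.13% of genes that rose and 7.8% of genes that fell. TATAAA occurred in 12.37% of all windows and, counted by gene, in 8.81% of genes tested, 13.85% of genes that rose and 12.73% of genes that fell. Timp4, an inhibitor made in fat, was the member that fell, with 0 CPM in both AdipoqTraced libraries and 15.0 and 37.4 CPM in Adipocyte. Calls missed with a single library left out were Mmp13 without Adipocyte 1 (0.0555), range 0.001 to 0.107; and Timp4 without Adipocyte 1 (0.0932), without Adipocyte 2 (0.258), range 1.2e-05 to 0.258.

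**Figure D3:**
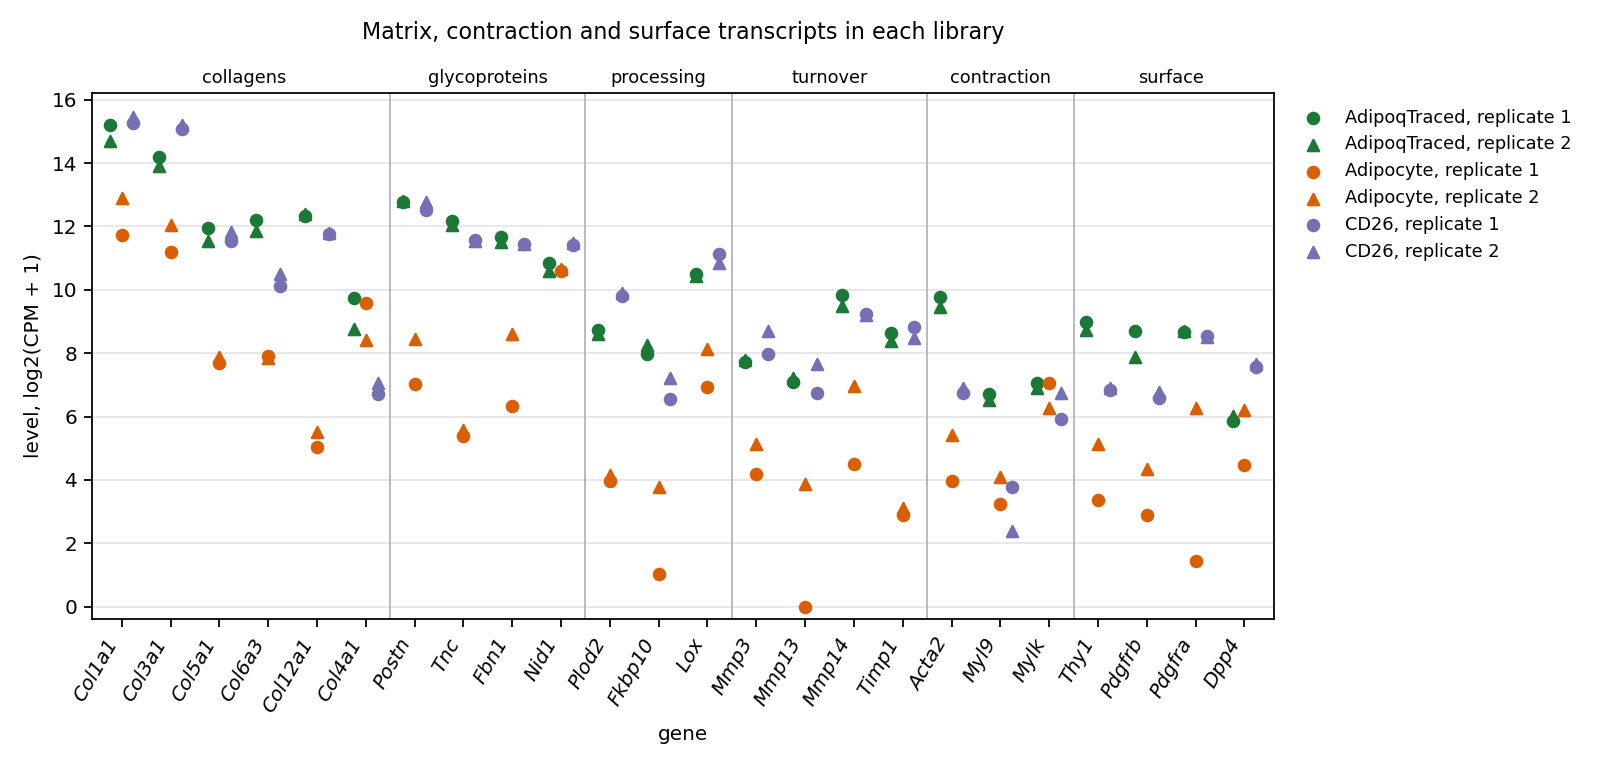
Level of matrix and contraction genes in each library as log2(CPM + 1), with AdipoqTraced in green, Adipocyte in orange and CD26 in purple, and replicates as circles and triangles. AdipoqTraced lies above both Adipocyte libraries for most genes, the exceptions being Col4a1, Nid1, Mylk and Dpp4, where AdipoqTraced and Adipocyte overlap.

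Contraction genes rose in part. Of 29 tested, 11 rose and 1 fell, with a median of 1.52. Acta2, the smooth muscle actin that defines myofibroblasts, stood at 874 and 701 CPM in AdipoqTraced, against 14.7 and 41.9 CPM in Adipocyte (log2 fold change 4.76, SE 0.44, adjusted p = 4.86e-05) and was higher than in CD26, which had 107 and 118 CPM (log2 fold change 2.81, SE 0.36, adjusted p = 0.0138). Csrp1, a LIM protein of actin bundles, also stood above both groups, at 476 and 368 CPM in AdipoqTraced, against 89.5 and 80.2 CPM in Adipocyte (log2 fold change 2.32, SE 0.34, adjusted p = 0.00128) and 89.7 and 94.96 CPM in CD26 (log2 fold change 2.19, SE 0.32, adjusted p = 0.0216). Myl9, the light chain that myosin kinase acts on, had 103 and 91.0 CPM in AdipoqTraced, 8.54 and 16.1 CPM in Adipocyte and 12.7 and 4.29 CPM in CD26 (log2 fold change 2.94, SE 0.66, adjusted p = 0.0168 against Adipocyte; log2 fold change 3.49, SE 0.58, adjusted p = 0.035 against CD26). For these 3 genes both AdipoqTraced libraries were above all 4 others. The nonmuscle myosin gene Myh9 stood at 789 and 806 CPM in AdipoqTraced, against 216 and 192 CPM in Adipocyte (log2 fold change 1.97, SE 0.28, adjusted p = 0.000907) and the cross-linker gene Actn1 at 137 and 142 CPM in AdipoqTraced, against 14.01 and 14.2 CPM in Adipocyte (log2 fold change 3.31, SE 0.52, adjusted p = 0.00208). Cnn1 and Tagln, also genes of smooth muscle, were not called. Cnn1, calponin, had 0 and 20.1 CPM in AdipoqTraced and 0 in both Adipocyte libraries (adjusted p = 0.371), and Tagln had 29.9 and 17.9 CPM in AdipoqTraced, against 3.08 and 3.68 CPM in Adipocyte (adjusted p = 0.114). Mylk, the myosin kinase gene, overlapped between the groups at 131 and 118 CPM in AdipoqTraced, against 133 and 77.0 CPM in Adipocyte (adjusted p = 0.765). Against Adipocyte, the call missed with a single library left out was Myl9 without AdipoqTraced 1 (0.0749), without AdipoqTraced 2 (0.0518), without Adipocyte 1 (0.223), without Adipocyte 2 (0.128), range 0.000678 to 0.223. Pericyte and smooth muscle markers summed to 1037 and 679 CPM in AdipoqTraced and 709 and 489.9 CPM in Adipocyte. In CD26 they summed to 339.5 and 460.8 CPM, below both other groups. Of 9 tested, 2 rose against Adipocyte, Pdgfrb and Notch3, and 1 fell, Des, which is in the contraction list too. Compared with CD26, 1 member was higher and none was lower. Skeletal muscle markers summed to 834 and 1664 CPM in Adipocyte. The part of either cell type in these results, those against CD26 included, was not tested.

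Adhesion genes rose in 9 of 26 cases and none fell (5 rose without Adipocyte 1, 6 without Adipocyte 2), with a median of 2.09. Itgb1, the shared integrin chain for collagen and fibronectin, stood at 936 and 691 CPM in AdipoqTraced, against 148 and 196 CPM in Adipocyte (log2 fold change 2.24, SE 0.30, adjusted p = 0.000686), and Itga5, its fibronectin partner, at 195 and 368 CPM in AdipoqTraced, against 15.4 and 33.7 CPM in Adipocyte (log2 fold change 3.49, SE 0.53, adjusted p = 0.00155). Cdh11, the cadherin of fibroblasts, stood at 708 and 690.2 CPM in AdipoqTraced, against 23.6 and 24.9 CPM in Adipocyte (log2 fold change 4.85, SE 0.37, adjusted p = 1.51e-05), and the syndecan gene Sdc1 at 186 and 168 CPM in AdipoqTraced, against 4.44 and 15.6 CPM in Adipocyte (log2 fold change 4.09, SE 0.53, adjusted p = 0.000528). Groups did not overlap for any of the 4. Itga7, a laminin receptor chain, was not called against Adipocyte, at 37.7 and 36.1 CPM in AdipoqTraced, against 42.0 and 80.2 CPM in Adipocyte (adjusted p = 0.458), and was higher in AdipoqTraced than in CD26, which had 1.29 and 0.1995 CPM (log2 fold change 5.53, SE 0.88, adjusted p = 0.0221).

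Targets and parts of the Hippo pathway, which responds to stretch, included no rise. Of 18 tested, none rose and 4 fell (2 fell without Adipocyte 1 and 1 without each of the others, and 1 rose without AdipoqTraced 2 or without Adipocyte 2), with a median of 0.13. Fhl1, a LIM protein abundant in muscle, stood at 38.7 and 39.3 CPM in AdipoqTraced, against 219 and 280.1 CPM in Adipocyte (log2 fold change -2.68, SE 0.39, adjusted p = 0.0011). Muscle markers fell with it, and their part was not tested. Target genes Ccn1 and Ccn2 were not called. Ccn1 stood at 327 and 302 CPM in AdipoqTraced, against 519.6 and 249 CPM in Adipocyte (adjusted p = 0.677), with overlap, and Ccn2 at 20.1 and 27.4 CPM in AdipoqTraced, against 0.683 and 10.5 CPM in Adipocyte (adjusted p = 0.256). Yap1, the coactivator itself, stood at 26.7 and 44.0 CPM in AdipoqTraced, against 68.3 and 129.7 CPM in Adipocyte (adjusted p = 0.0959).

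**Figure D4:**
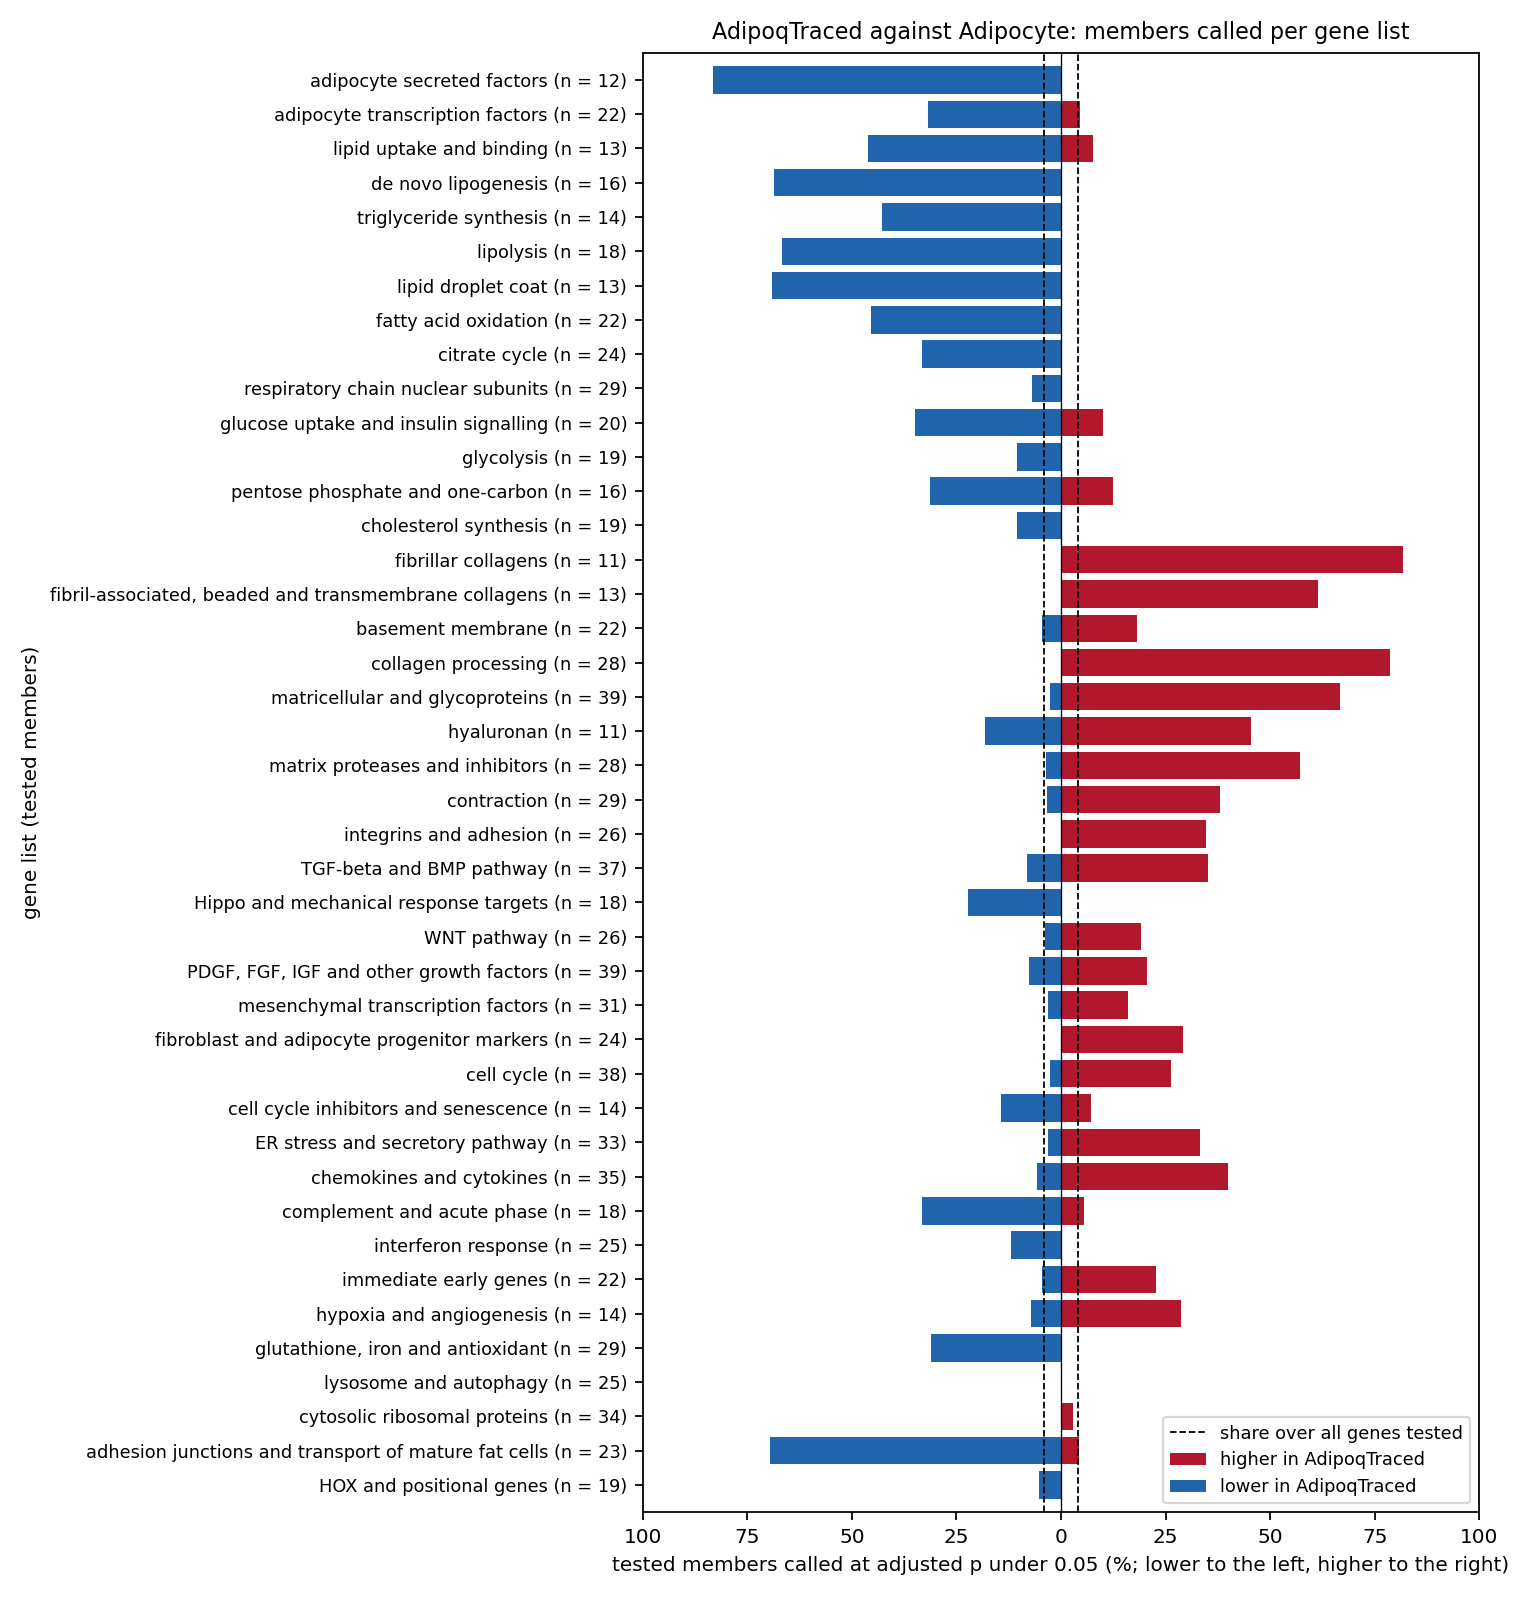
Share of the tested members of each gene list that were called at an adjusted p under 0.05, with rises in AdipoqTraced to the right in red and falls to the left in blue; dashed lines mark the shares over all genes tested, 3.97% higher and 4.17% lower. Fat cell lists extend to the left and matrix lists to the right, and the lysosome list has no call on either side.

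Ligands, receptors and modulators of TGF-β and BMP signalling rose in 13 of 37 cases and fell in 3 (4 rose without Adipocyte 1, 7 without Adipocyte 2 and 8 without AdipoqTraced 2), with a median of 1.27. Among ligands, Inhba, the activin A chain, stood at 687 and 850.1 CPM in AdipoqTraced, against 64.9 and 50.4 CPM in Adipocyte (log2 fold change 3.74, SE 0.30, adjusted p = 1.93e-05), while Tgfb1 was not called, at 150.0 and 92.0 CPM in AdipoqTraced, against 51.6 and 22.7 CPM in Adipocyte (adjusted p = 0.0653). Chrdl1, a secreted BMP blocker, stood at 12.8 and 16.2 CPM in AdipoqTraced, against 209.8 and 192 CPM in Adipocyte (log2 fold change -3.79, SE 0.42, adjusted p = 0.00018). Chrdl1 was lower than in CD26 as well, which had 96.3 and 94.4 CPM (log2 fold change -2.72, SE 0.40, adjusted p = 0.0221). Neither Inhba nor Chrdl1 overlapped between AdipoqTraced and Adipocyte. Fstl1, a secreted modulator, stood at 3447 and 3404 CPM in AdipoqTraced, against 220.3 and 555 CPM in Adipocyte (log2 fold change 3.14, SE 0.36, adjusted p = 0.000223). Intracellular mediators Smad2, Smad3 and Smad4 were not called, with adjusted p of 0.496, 0.921 and 0.151.

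WNT genes were mostly not called. Of 26 tested, 5 rose and 1 fell (2 rose without either Adipocyte library), with a median of 0.92. Fzd4, a receptor of vessels and fat, stood at 36.3 and 21.9 CPM in AdipoqTraced, against 261 and 219 CPM in Adipocyte (log2 fold change -3.04, SE 0.42, adjusted p = 0.000828). Sfrp2, a secreted WNT binder, stood at 669 and 521 CPM in AdipoqTraced, against 46.1 and 115 CPM in Adipocyte (log2 fold change 2.86, SE 0.38, adjusted p = 0.000605) and was lower than in CD26, which had 2048 and 2610 CPM (log2 fold change -1.97, SE 0.34, adjusted p = 0.0392). AdipoqTraced thus lay between the other groups for Sfrp2. Axin2, a target of the pathway, was low everywhere, at 6.51 and 7.43 CPM in AdipoqTraced, against 13.7 and 17.0 CPM in Adipocyte (adjusted p = 0.484).

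Of 39 tested growth factor genes, 8 rose and 3 fell, with a median of 1.19 (0 fell without AdipoqTraced 1 or without Adipocyte 1, and 1 without Adipocyte 2). Pdgfrb, the receptor of mural cells and fibroblasts, stood at 413 and 236 CPM in AdipoqTraced, against 6.49 and 19.5 CPM in Adipocyte (log2 fold change 4.59, SE 0.54, adjusted p = 0.000268). Pdgfra, the receptor of fibroblasts and fat progenitors, stood at 410.5 and 414 CPM in AdipoqTraced, against 1.71 and 77.0 CPM in Adipocyte (log2 fold change 3.32, SE 0.68, adjusted p = 0.0096). Adipocyte 1 held almost no Pdgfra, unlike Adipocyte 2. Ereg, an EGF receptor ligand, stood at 176 and 112 CPM in AdipoqTraced, against 0 and 6.80 CPM in Adipocyte (log2 fold change 5.28, SE 0.75, adjusted p = 0.00067), and Angptl2, a secreted angiopoietin-like protein, at 463 and 347 CPM in AdipoqTraced, against 67.3 and 59.8 CPM in Adipocyte (log2 fold change 2.68, SE 0.34, adjusted p = 0.000512). Vegfa, the main vessel growth factor, was not called and overlapped, at 284 and 207 CPM in AdipoqTraced, against 325 and 257 CPM in Adipocyte (adjusted p = 0.668). The calls missed with a single library left out were Pdgfra without AdipoqTraced 1 (0.0697), without AdipoqTraced 2 (0.0672), range 0.000328 to 0.199.

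Mesenchymal transcription factors were mostly not called. Of 31 tested, 5 rose and 1 fell (2 rose and 1 fell without Adipocyte 1, and none fell without each of the others), with a median of 1.36. Runx1, a regulator of blood and stromal cells, stood at 304 and 381 CPM in AdipoqTraced, against 111 and 98.0 CPM in Adipocyte (log2 fold change 1.72, SE 0.31, adjusted p = 0.00421), and Fosl2, an AP-1 subunit, at 678 and 585 CPM in AdipoqTraced, against 247 and 205 CPM in Adipocyte (log2 fold change 1.48, SE 0.27, adjusted p = 0.0051). Prrx1, which marks skin fibroblasts, was not called, at 616 and 389 CPM in AdipoqTraced, against 151 and 325 CPM in Adipocyte (adjusted p = 0.111), but was called as Prrx1 without Adipocyte 2 (0.0373), range 0.0373 to 0.595. The factors of epithelial to mesenchymal transition Twist1, Snai1, Snai2 and Zeb1 were not called, with adjusted p of 0.327, 0.104, 0.738 and 0.404. Snai1 had 21.9 and 12.4 CPM in AdipoqTraced and 0 in both Adipocyte libraries.

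Markers of fibroblasts and fat progenitors rose in 7 of 24 cases and none fell, with a median of 1.02. Cd248, endosialin, stood at 307 and 264 CPM in AdipoqTraced, against 27.0 and 45.6 CPM in Adipocyte (log2 fold change 2.96, SE 0.40, adjusted p = 0.000737), and the small leucine-rich proteoglycan gene Lum at 1033 and 1023 CPM in AdipoqTraced, against 171 and 329.9 CPM in Adipocyte (log2 fold change 2.03, SE 0.32, adjusted p = 0.00194). Crabp1, a retinoic acid binder of fibroblasts, stood at 198 and 217 CPM in AdipoqTraced, against 9.22 and 3.12 CPM in Adipocyte (log2 fold change 5.13, SE 0.61, adjusted p = 0.000229) and was higher than in CD26, which had 53.1 and 35.5 CPM (log2 fold change 2.22, SE 0.41, adjusted p = 0.0437). All 3 lay higher in both AdipoqTraced libraries. Pdgfra and Thy1, used to sort progenitors, were among the 7 that rose, while Dpp4 and Cd34 were not called. The call missed with a single library left out was Pdgfra without AdipoqTraced 1 (0.0697), without AdipoqTraced 2 (0.0672), range 0.000328 to 0.199. Dpp4 stood at 57.0 and 63.6 CPM in AdipoqTraced, against 21.2 and 72.2 CPM in Adipocyte (adjusted p = 0.732) and Cd34 at 187 and 102 CPM in AdipoqTraced, against 49.9 and 87.5 CPM in Adipocyte (adjusted p = 0.193). Cd24a, another marker of progenitors, overlapped at 66.6 and 100.6 CPM in AdipoqTraced, against 72.4 and 49.6 CPM in Adipocyte (adjusted p = 0.571).

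Cell cycle genes rose in 10 of 38 cases and fell in 1, with a median of 2.66. Without Adipocyte 1, 3 rose and none fell, without Adipocyte 2, 1 rose, and without AdipoqTraced 1, 6 rose. Mki67, a marker of dividing cells, was called in each of these fits, and stood at 348 and 300.4 CPM in AdipoqTraced, against 47.8 and 45.9 CPM in Adipocyte (log2 fold change 2.79, SE 0.34, adjusted p = 0.00041). Ccna2, the cyclin of DNA replication, stood at 97.8 and 80.8 CPM in AdipoqTraced, against 7.52 and 0 CPM in Adipocyte (log2 fold change 4.69, SE 0.88, adjusted p = 0.00428), and Top2a, the topoisomerase of dividing cells, at 150.3 and 178 CPM in AdipoqTraced, against 34.5 and 4.81 CPM in Adipocyte (log2 fold change 3.13, SE 0.59, adjusted p = 0.00578). All 3 lay higher in both AdipoqTraced libraries. Ccnd2, the D-type cyclin of fat cells among others, stood at 72.8 and 219 CPM in AdipoqTraced, against 728 and 592 CPM in Adipocyte (log2 fold change -2.18, SE 0.44, adjusted p = 0.00899), and the inhibitor gene Cdkn2c, p18, at 1.86 and 9.85 CPM in AdipoqTraced, against 138 and 96.9 CPM in Adipocyte (log2 fold change -4.32, SE 0.70, adjusted p = 0.00248). Both lay lower in both AdipoqTraced libraries. Calls missed with a single library left out were Ccna2 without Adipocyte 2 (0.0735), range 0.000258 to 0.0735; Top2a without Adipocyte 2 (0.0583), range 0.000514 to 0.0583; and Ccnd2 without Adipocyte 1 (0.0821), range 0.000207 to 0.0821.

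Secretory pathway genes rose in part. Of 33 tested genes, 11 rose and 1 fell (7 rose without Adipocyte 1, and none fell without AdipoqTraced 1, AdipoqTraced 2 or Adipocyte 1), with a median of 1.02. Sec61a1, the channel into the endoplasmic reticulum, stood at 429 and 349 CPM in AdipoqTraced, against 77.9 and 69.7 CPM in Adipocyte (log2 fold change 2.40, SE 0.34, adjusted p = 0.000948), and Pdia3, which forms disulphide bonds, at 1141 and 1042 CPM in AdipoqTraced, against 281 and 333 CPM in Adipocyte (log2 fold change 1.83, SE 0.25, adjusted p = 0.000796). Kdelr2, which returns escaped chaperones, stood at 793 and 594 CPM in AdipoqTraced, against 79.2 and 124 CPM in Adipocyte (log2 fold change 2.76, SE 0.34, adjusted p = 0.000356), and its relative Kdelr3 at 154 and 90.5 CPM in AdipoqTraced, against 0 and 1.42 CPM in Adipocyte (log2 fold change 7.28, SE 0.99, adjusted p = 0.000696). The 4 genes showed no overlap. Of the genes of folding and stress, Manf, Hsp90b1, Calr and Pdia6 rose, with log2 fold changes of 3.74, 0.98, 1.36 and 2.89, and Dnajb9 fell, at -1.58. With a single library left out, calls were missed in Hsp90b1 without AdipoqTraced 2 (0.0822), without Adipocyte 1 (0.0571), range 0.0024 to 0.134; Calr without AdipoqTraced 1 (0.118), without Adipocyte 1 (0.111), without Adipocyte 2 (0.0583), range 0.000505 to 0.118; and Dnajb9 without AdipoqTraced 1 (0.196), without AdipoqTraced 2 (0.102), without Adipocyte 1 (0.55), range 0.00796 to 0.55. Hspa5, the chaperone BiP, was not called, and stood at 480.2 and 422 CPM in AdipoqTraced, against 278 and 245 CPM in Adipocyte (adjusted p = 0.113), and Ddit3, the stress factor CHOP, was not called and overlapped at 14.1 and 77.6 CPM in AdipoqTraced, against 27.3 and 49.0 CPM in Adipocyte (adjusted p = 0.88).

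Signals to immune cells rose in part. Over all genes tested 3.97% rose and 4.17% fell, and the falls here were few and near that share. Of 35 tested chemokine, cytokine and prostaglandin genes, 14 rose and 2 fell (none fell without Adipocyte 1 or without Adipocyte 2, and 1 without either AdipoqTraced library), with a median of 1.94. Il1rl1, the receptor of interleukin 33, stood at 480.2 and 502 CPM in AdipoqTraced, against 1.71 and 11.9 CPM in Adipocyte (log2 fold change 6.09, SE 0.53, adjusted p = 2.97e-05). The neutrophil attractant gene Cxcl5 stood at 155 and 161 CPM in AdipoqTraced, against 0 and 3.40 CPM in Adipocyte (log2 fold change 6.40, SE 0.77, adjusted p = 0.000186), the stromal chemokine gene Cxcl12 at 224 and 212 CPM in AdipoqTraced, against 17.8 and 22.9 CPM in Adipocyte (log2 fold change 3.41, SE 0.44, adjusted p = 0.00054), and Csf1, the macrophage growth factor gene, at 206 and 253 CPM in AdipoqTraced, against 48.5 and 45.3 CPM in Adipocyte (log2 fold change 2.29, SE 0.37, adjusted p = 0.00241). Both AdipoqTraced libraries lay above both Adipocyte libraries in each. Saa3, an acute-phase protein of inflamed fat, also rose, to 417 and 284 CPM in AdipoqTraced, against 57.0 and 33.4 CPM in Adipocyte (log2 fold change 2.97, SE 0.40, adjusted p = 0.000702). The genes that fell were Cxcl9 and Cxcl10, both induced by interferon γ. Their calls were missed in Cxcl9 without AdipoqTraced 1 (0.146), without Adipocyte 1 (0.196), without Adipocyte 2 (0.101), range 0.00326 to 0.196; and Cxcl10 without AdipoqTraced 2 (0.0985), without Adipocyte 1 (0.208), without Adipocyte 2 (0.051), range 0.0023 to 0.208. Macrophage and monocyte markers summed to 5727 and 3804 CPM in AdipoqTraced and 1597 and 3213 CPM in Adipocyte, and their part in these values was not tested.

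Complement and acute-phase genes fell in 6 of 18 cases and rose in 1 (0 rose without AdipoqTraced 1 or without Adipocyte 1, and 4 without Adipocyte 2), with a median of 0.0. C3, the hub of the cascade, stood at 628 and 569 CPM in AdipoqTraced, against 3431 and 2439 CPM in Adipocyte (log2 fold change -2.29, SE 0.25, adjusted p = 0.000167), and C4b at 156 and 123 CPM in AdipoqTraced, against 959 and 871 CPM in Adipocyte (log2 fold change -2.71, SE 0.29, adjusted p = 0.000151). Hp, haptoglobin, which binds free haemoglobin, stood at 100.3 and 82.8 CPM in AdipoqTraced, against 1825 and 1273 CPM in Adipocyte (log2 fold change -4.08, SE 0.39, adjusted p = 7.05e-05). Of 25 tested interferon response genes, 3 fell and none rose. They were Irf1, a transcription factor that interferon γ induces, at 94.7 and 63.1 CPM in AdipoqTraced, against 578 and 592 CPM in Adipocyte (log2 fold change -2.89, SE 0.34, adjusted p = 0.000256), the class I light chain gene B2m, at 1904 and 1864 CPM in AdipoqTraced, against 4272 and 4173 CPM in Adipocyte (log2 fold change -1.16, SE 0.20, adjusted p = 0.00339), and H2-K1, a class I heavy chain, at 873 and 549.7 CPM in AdipoqTraced, against 2304 and 1812 CPM in Adipocyte (log2 fold change -1.53, SE 0.28, adjusted p = 0.00466). Ifit1, a gene of the type I response, was not called (adjusted p = 0.209). The call missed with a single library left out was H2-K1 without AdipoqTraced 2 (0.0504), range 7.2e-05 to 0.0504.

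Of 22 immediate early genes, 5 rose and 1 fell (3 rose without AdipoqTraced 1 or without either Adipocyte library). Egr1 stood at 1517 and 1462 CPM in AdipoqTraced, against 3916 and 3191 CPM in Adipocyte (log2 fold change -1.25, SE 0.22, adjusted p = 0.00365) and its relative Egr3 at 257 and 296 CPM in AdipoqTraced, against 2.73 and 44.2 CPM in Adipocyte (log2 fold change 3.49, SE 0.61, adjusted p = 0.00371), in opposite directions, and the call of Egr3 ended with legacy = TRUE (adjusted p = 0.0545; 0.000401 to 0.0545 over 17 alternatives). Fos overlapped at 622 and 361 CPM in AdipoqTraced, against 593 and 487 CPM in Adipocyte (adjusted p = 0.973). Of 14 hypoxia genes, 4 rose and 1 fell (2 rose without either Adipocyte library, and 2 fell without AdipoqTraced 2). Ndrg1, a stress and hypoxia gene, stood at 484 and 496 CPM in AdipoqTraced, against 30.8 and 41.4 CPM in Adipocyte (log2 fold change 3.75, SE 0.38, adjusted p = 9.82e-05), and Bnip3, a mitophagy receptor, at 28.6 and 18.0 CPM in AdipoqTraced, against 209 and 127 CPM in Adipocyte (log2 fold change -2.84, SE 0.48, adjusted p = 0.00313). Of 25 lysosome and autophagy genes, 0 were called by edgeR here, and of 34 cytosolic ribosomal protein genes 1 was, Rps3, at 656 and 601 CPM in AdipoqTraced, against 304 and 291 CPM in Adipocyte (log2 fold change 1.08, SE 0.27, adjusted p = 0.0319). Among 19 positional genes, 1 fell, Hoxc8, at 51.4 and 52.5 CPM in AdipoqTraced, against 277 and 152 CPM in Adipocyte (log2 fold change -2.04, SE 0.41, adjusted p = 0.00885). Calls missed with a single library left out were Bnip3 without Adipocyte 1 (0.0743), range 1.09e-06 to 0.0743; Rps3 without AdipoqTraced 1 (0.124), without AdipoqTraced 2 (0.0766), without Adipocyte 1 (0.107), without Adipocyte 2 (0.115), range 0.00353 to 0.136; and Hoxc8 without AdipoqTraced 1 (0.0727), without AdipoqTraced 2 (0.0617), without Adipocyte 1 (0.162), range 0.000109 to 0.162.

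Markers of other cells were present in both groups. Over 10 marker lists, macrophage and monocyte markers had the highest sums in AdipoqTraced, and of 18 tested 3 rose (Cd14, Arg1 and Ptprc) and 1 fell (Cd163), while 1 to 5 rose and none fell with a single library left out. The leukocyte gene Ptprc, CD45, stood at 241 and 192 CPM in AdipoqTraced, against 50.2 and 78.2 CPM in Adipocyte (log2 fold change 1.74, SE 0.36, adjusted p = 0.0111), and Csf1r, the receptor for the macrophage growth factor, at 333 and 177 CPM in AdipoqTraced, against 146 and 174 CPM in Adipocyte (adjusted p = 0.316). Keratinocyte markers summed to 1229 and 837 CPM in AdipoqTraced and 145 and 382 CPM in Adipocyte, with 5 of 16 higher and 1 lower (0 and 0 without Adipocyte 1, 2 and 0 without Adipocyte 2, and 3 and 0 without AdipoqTraced 1). Krt6a, the keratin of wounded epidermis, stood at 154 and 121 CPM in AdipoqTraced, against 5.81 and 10.2 CPM in Adipocyte (log2 fold change 4.07, SE 0.64, adjusted p = 0.0018). Most keratinocyte and macrophage markers were thus not called, but among all genes tested 3.97% rose and 4.17% fell. The log2 fold change was above 0 for 15 macrophage and monocyte markers and below 0 for 3. For keratinocyte markers these counts were 13 and 3. Skeletal muscle markers had 10 of 16 lower (5 without Adipocyte 2). Neb, nebulin of the thin filament, stood at 7.63 and 9.76 CPM in AdipoqTraced, against 127 and 185 CPM in Adipocyte (log2 fold change -4.17, SE 0.52, adjusted p = 0.000452), and Acta1, the muscle actin, at 2.42 and 0.0929 CPM in AdipoqTraced, against 62.5 and 164 CPM in Adipocyte (log2 fold change -6.50, SE 0.91, adjusted p = 0.000605). Endothelial markers summed to 59.0 and 94.0 CPM in AdipoqTraced and 45.1 and 107 CPM in Adipocyte, neutrophil markers to 261 and 145 CPM in AdipoqTraced and 113 and 62.3 CPM in Adipocyte, and mast cell markers to 84.9 and 93.8 CPM in AdipoqTraced and 25.6 and 48.1 CPM in Adipocyte. Lymphocyte markers, of which Thy1 alone was called, summed to 509 and 437 CPM in AdipoqTraced and 9.22 and 52.1 CPM in Adipocyte. Thy1, also a fibroblast marker above, made up most of these sums, with 509 and 428 CPM in AdipoqTraced and 9.22 and 34.3 CPM in Adipocyte. Melanocyte and glia markers summed to 6.14 and 25.5 CPM in AdipoqTraced and 19.5 and 31.7 CPM in Adipocyte. Erythroid markers summed to 11.3 and 8.36 CPM in AdipoqTraced and 0 and 24.4 CPM in Adipocyte. At 0 in both AdipoqTraced libraries were 2 of 8 neutrophil markers (Ly6g among them), 4 of 10 lymphocyte, 5 of 7 erythroid (Hba-a1 among them) and 8 of 17 muscle markers (Tnnt3 among them). In both Adipocyte libraries 1 neutrophil marker (Ly6g), 6 lymphocyte and 3 erythroid markers were at 0. The T cell gene Cd3d had 0 and 1.859 CPM in AdipoqTraced and 0 in both Adipocyte libraries. The part of these cells in the other results was not tested. Calls missed with a single library left out were Krt6a without Adipocyte 1 (0.0649), range 2.34e-10 to 0.272; Ptprc without AdipoqTraced 1 (0.06), without Adipocyte 1 (0.121), range 9.62e-05 to 0.121; Arg1 without AdipoqTraced 1 (0.167), without AdipoqTraced 2 (0.0507), without Adipocyte 1 (0.383), without Adipocyte 2 (0.204), range 0.00279 to 0.383; and Cd163 without AdipoqTraced 1 (0.0996), without AdipoqTraced 2 (0.104), without Adipocyte 1 (0.218), without Adipocyte 2 (0.331), range 0.000377 to 0.331.

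**Figure D5:**
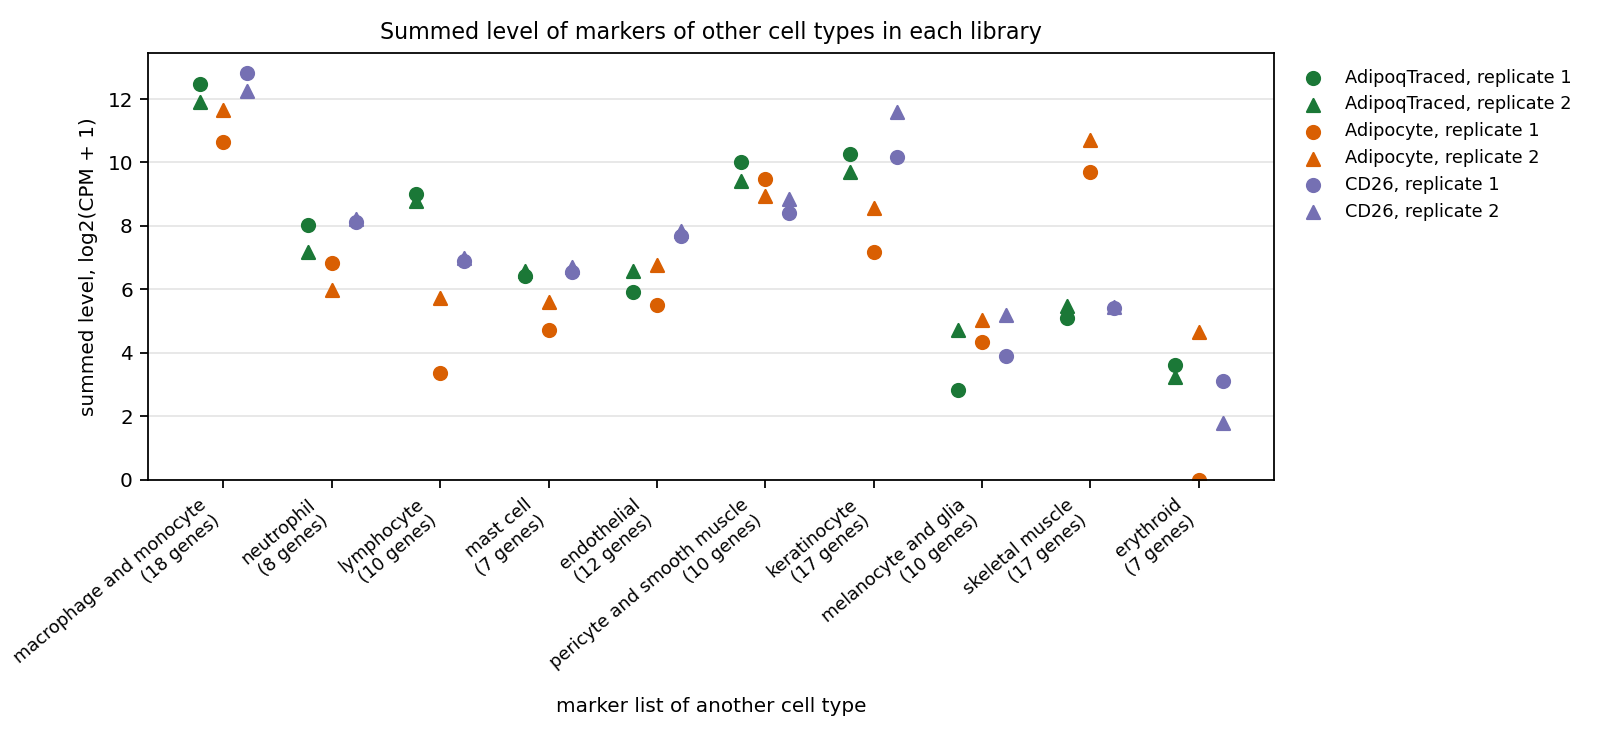
Summed level of 10 marker lists of other cell types in each library as log2(CPM + 1), with AdipoqTraced in green, Adipocyte in orange and CD26 in purple, and replicates as circles and triangles. Skeletal muscle sums are higher in Adipocyte than in both other groups. Keratinocyte sums are higher in AdipoqTraced than in Adipocyte, and are 1155 and 3113 CPM in CD26. Endothelial sums overlap between AdipoqTraced and Adipocyte, and those of CD26 lie above both.

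The largest falls by log2 fold change among called genes were all of genes at 0 in both AdipoqTraced libraries, so each fold is a lower bound against 3 counts over the group. Adhfe1, a mitochondrial alcohol dehydrogenase, had 255 and 270.2 CPM in Adipocyte and was at least 1883-fold lower. Ces1d, a carboxylesterase that acts on triglyceride, had 236 and 233 CPM in Adipocyte and was at least 1682-fold lower, but it has close paralogues, so its reads may be shared. Reep6, of the endoplasmic reticulum, had 206 and 124 CPM in Adipocyte and was at least 1184-fold lower, and Pon1, a paraoxonase best known from liver, had 162 and 99.97 CPM in Adipocyte and was at least 938-fold lower. Myl1 and Xirp2, of striated muscle, were in the same set of 12, and the part of muscle RNA in their values was not tested. The largest rises were likewise of genes at 0 in both Adipocyte libraries. Slc1a2, a glutamate transporter, had 52.6 and 162 CPM in AdipoqTraced and was at least 231-fold higher. Enpp1, which makes pyrophosphate outside the cell, had 60.8 and 118 CPM in AdipoqTraced and was at least 192-fold higher. In CD26, Slc1a2 had 126 and 152 CPM and Enpp1 75.7 and 69.0 CPM. These calls were missed in Slc1a2 without Adipocyte 1 (0.0743), without Adipocyte 2 (0.0795), range 5.24e-10 to 0.0795; and Enpp1 without Adipocyte 1 (0.0506), without Adipocyte 2 (0.0519), range 8.24e-10 to 0.0519.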

How the data were processed

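Whole-number counts per gene were used as deposited in a table of the whole series. Per the submitters' processing notes, the authors used CASAVA 1.8.2, HISAT2 2.1, StringTie 1.3.3b and the mm10 genome. A nanoprep kit gave the RNA and a SMARTer ultra-low-input kit amplified it, per the labels' protocols. That kit keeps no strand, so reads of overlapping and antisense genes cannot be told apart. Of 52636 genes, 52489 Ensembl identifiers matched a symbol and the rest entered unnamed. Totals ran from 13760557 to 21407683 counts in the 4 libraries. The 37 mitochondrial rows were set aside before scaling. edgeR 4.0.16 (filterByExpr, TMM, quasi-likelihood test with robust = TRUE and legacy = FALSE, Benjamini-Hochberg) was fitted to the AdipoqTraced, Adipocyte and CD26 libraries, 6 in all, with a coefficient per group and 3 residual degrees of freedom. DESeq2 1.42.0 and other settings were alternatives. The fit was tested on simulated data. Members and the 52 gene lists were chosen with earlier results of these data known. Genes named were members marked in those lists, the 3 called members with the smallest p of each list, and the 12 largest rises and falls with a mean of at least 20 CPM in a group; the other members printed, and those under other observations, were chosen after their values were seen, and some genes are not reported here. Same-numbered libraries did not deviate together (r = -0.02 for each pair of groups), so the numbers were not treated as pairs.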

Additional observations from a re-analysis of the deposited data

How the results depend on the processing

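Libraries of AdipoqTraced and Adipocyte did not overlap for any called gene, and every alternative drew on these libraries, so signs were nearly fixed beforehand. Of the 1304 genes called between AdipoqTraced and Adipocyte, none changed sign under any of 17 alternatives. The count lay within 1.5 times of 1304 with 3 other scalings, with mitochondrial rows kept, with nuclear ribosomal RNA rows removed, with legacy = TRUE (1088), without the filter on low counts (1116), with 4 libraries only, with all 14 libraries (1892), with a replicate block (986), with a fold threshold of 1.5 and after thinning all libraries to the depth of the shallowest, an alternative chosen after seeing the data (1802). It was 2503 with DESeq2. With a single library left out it ran from 475 to 1005, and 464 of the 1304 remained called without Adipocyte 1. The replicate block kept 973 of the 1304, and its numbers were not shown to pair the libraries. The median log2 fold change over all genes lay between 0.11 and 0.28 with all 4 libraries in use, and ran from 0 without AdipoqTraced 2 to 0.67 without Adipocyte 2, so list medians shift by that much between such fits. Between AdipoqTraced and CD26, 64 genes were called, 494 with DESeq2, 697 with all 14 libraries, 40 without the filter, 24 with a fold threshold of 1.5, 6 with legacy = TRUE, 6 with the replicate block, and 0 to 48 with a single library left out; the cause was not tested. Of 234 genes named, 179 were called, 146 of them in every alternative, and 55 were not, of which 5 were called in at least 1. DESeq2 called Snai1 (adjusted p = 0.000285), Tagln (0.0223), Tgfb1 (0.0358) and Yap1 (0.0331), whose ranges over the alternatives were 0.000285 to 0.541, 0.0223 to 0.651, 0.0142 to 0.475 and 0.0331 to 0.717. Limits are 2 libraries a group and the shallow nuclear counts of Adipocyte, so a gene not called is not shown to be alike in both groups.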

Other observations

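Genes outside the lists, chosen after their values were seen, included several of fibroblasts. Lrrc15, a membrane protein of activated fibroblasts, stood at 1140 and 1163 CPM in AdipoqTraced, against 11.3 and 15.6 CPM in Adipocyte (log2 fold change 6.40, SE 0.35, adjusted p = 1.4e-06). Cthrc1, secreted in collagen-rich wounds, stood at 414 and 337 CPM in AdipoqTraced, against 9.22 and 15.6 CPM in Adipocyte (log2 fold change 4.89, SE 0.43, adjusted p = 3.78e-05), and Ckap4, of the rough endoplasmic reticulum, at 1162 and 983 CPM in AdipoqTraced, against 45.4 and 37.7 CPM in Adipocyte (log2 fold change 4.70, SE 0.32, adjusted p = 6.17e-06). The imprinted long noncoding RNA Meg3 stood at 315 and 538 CPM in AdipoqTraced, against 8.88 and 10.8 CPM in Adipocyte (log2 fold change 5.43, SE 0.47, adjusted p = 3.02e-05). Both AdipoqTraced libraries lay above both Adipocyte libraries for these 4. None of the 4 was called against CD26. There Lrrc15 had 822.5 and 894.5 CPM, Cthrc1 385.7 and 507.5 CPM, Ckap4 906.6 and 1065 CPM, and Meg3 518.9 and 639.8 CPM. Ddit4, an inhibitor of mTORC1 under stress, was higher than in both other groups, at 212 and 191 CPM in AdipoqTraced, against 5.47 and 6.51 CPM in Adipocyte (log2 fold change 5.06, SE 0.55, adjusted p = 0.000138) and 45.9 and 60.1 CPM in CD26 (log2 fold change 1.93, SE 0.37, adjusted p = 0.0498). Serpinb2, an inhibitor of plasminogen activators, lay between them, at 268 and 219.7 CPM in AdipoqTraced, against 1.37 and 7.65 CPM in Adipocyte (log2 fold change 5.67, SE 0.53, adjusted p = 3.51e-05) and 879 and 878 CPM in CD26 (log2 fold change -1.85, SE 0.32, adjusted p = 0.0372). The calls against CD26 were missed without CD26 1 and without CD26 2.

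Other genes outside the lists, also chosen after their values were seen, fell. Ghr, the growth hormone receptor, stood at 79.2 and 110.1 CPM in AdipoqTraced, against 2728 and 1836 CPM in Adipocyte (log2 fold change -4.59, SE 0.32, adjusted p = 8.99e-06), and Npr3, which clears natriuretic peptides, at 0 and 1.67 CPM in AdipoqTraced, against 259.6 and 212 CPM in Adipocyte (log2 fold change -8.11, SE 0.87, adjusted p = 6.21e-05). Ntrk2, the receptor TrkB, stood at 13.7 and 22.4 CPM in AdipoqTraced, against 505 and 425 CPM in Adipocyte (log2 fold change -4.69, SE 0.41, adjusted p = 3.78e-05). Among enzymes and carriers, Glul, glutamine synthetase, stood at 519 and 447 CPM in AdipoqTraced, against 3228 and 2500 CPM in Adipocyte (log2 fold change -2.57, SE 0.25, adjusted p = 7.76e-05), Trf, the iron carrier transferrin, at 137 and 72.7 CPM in AdipoqTraced, against 1532 and 1367 CPM in Adipocyte (log2 fold change -3.79, SE 0.35, adjusted p = 4.74e-05), and Cdo1, which breaks down cysteine, at 28.8 and 32.0 CPM in AdipoqTraced, against 2789 and 2466 CPM in Adipocyte (log2 fold change -6.43, SE 0.37, adjusted p = 2.17e-06). Cdo1 had 3.10 and 8.78 CPM in CD26, so that AdipoqTraced lay between the other groups (log2 fold change 2.39, SE 0.41, adjusted p = 0.038). No gene of this paragraph overlapped between AdipoqTraced and Adipocyte.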
